A study of Mus musculus with 16 samples.

Results

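The 39 genes described here belong to the unfolded protein response, the integrated stress response and the heat shock response. They were chosen by name, and each of the 39 was found among the 57010 genes counted in mouse granulosa cells (mGCs), the steroid-producing support cells of the ovarian follicle. By role they are 9 chaperones and co-chaperones of the endoplasmic reticulum (ER), 6 lectin chaperones and disulfide isomerases, 5 sensors and genes of ER-associated degradation (ERAD), 6 genes of the integrated stress response, 11 genes of the cytosolic heat shock response and 2 mitochondrial chaperones. Endometriosis (EM) was modelled in female ICR mice, 6 weeks old at surgery, by suturing endometrium of estradiol-primed donor mice to the serosa of the mesentery, and control (Con) mice had the sham operation without an implant. Per the methods of the study, recipients kept their ovaries, received 17β-estradiol every other day for 14 days and had a washout of 2 weeks before ovulation was induced. In the first experiment, freshly isolated mGCs gave 5 libraries of the sham group (Con-mGC) and 5 of the EM group (EM-mGC), each from 1 mouse. In the second, mGCs of 6 EM mice were divided, kept in DMEM/F12 medium with 5% fetal bovine serum, and given PBS (3 libraries) or 100 nM 14,15-EET (EET, 3 libraries) for 24 h. A figure legend of the study places 24 h of culture before this addition, which its methods do not mention. The methods of the study call these 3 replicates paired, and no label used here says which libraries form a pair. 14,15-EET is an epoxyeicosatrienoic acid, a lipid that cytochrome P450 enzymes make from arachidonic acid. All cultured cells came from EM mice, so EET was not tested on cells of sham mice here.

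Proteins that enter the secretory pathway fold in the ER with the help of chaperones such as HSPA5 (BiP). When unfolded proteins accumulate there, the sensors IRE1 (gene Ern1), PERK (Eif2ak3) and ATF6 raise folding and degradation capacity through the transcription factors XBP1, ATF4 and cleaved ATF6. ATF4 is also translated when other kinases of the same target sense amino acid shortage, which is why its program is called the integrated stress response. In the cytosol, unfolded proteins release HSF1, which drives the heat shock genes. Granulosa cells secrete inhibins, activins and follistatin, which fold in the ER. The mRNA level does not report the activity of these sensors, since Xbp1 is activated by splicing, ATF6 by cleavage and ATF4 by translation.

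The libraries held 14229123 to 15999234 counted reads in the fresh groups and 21384686 to 29482826 in the cultured groups. Levels are CPM, counts scaled to library size with TMM factors over all 16 libraries. The 10 granulosa markers summed to 9279 to 12209.5 CPM in Con-mGC, 4832 to 16447 CPM in EM-mGC, and 4981 to 5960.2 CPM in the cultured groups. In the cultured groups Cyp19a1, Amh and Fshr were at or below 0.377, 0.432 and 6.34 CPM. Inhba was at 2185 to 2305 CPM in culture, within its range in Con-mGC (1619 to 3013 CPM). The other markers were detected in culture but below every Con-mGC library. They were Inha (2056 to 3016 CPM), Foxl2 (119 to 158 CPM), Fst (239 to 286 CPM), Nr5a2 (104 to 110 CPM), Hsd17b1 (106 to 158 CPM) and Esr2 (56.4 to 70.8 CPM). Fresh libraries also held markers of other cells. Those of red blood cells summed to between 2436 and 16014.5 CPM, and those of neutrophils to between 5.82 and 159 CPM, and both lists were at or below 0.223 CPM in every cultured library. Some EM-mGC libraries stood apart. EM-mGC-2 had the highest granulosa marker sum of the 10 fresh libraries (16447 CPM) and EM-mGC-4 the lowest (4832 CPM), and EM-mGC-4 also had the highest sum of 11 immediate early genes (3024 CPM, against 854 to 1593 CPM in the other 9). EM-mGC-3 had 21.8% of its counts on mitochondrial genes, against 6.76% to 11.1% in the other fresh libraries. In such bulk libraries, fewer cells of a type and less RNA per cell cannot be told apart.

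**Figure D1:**
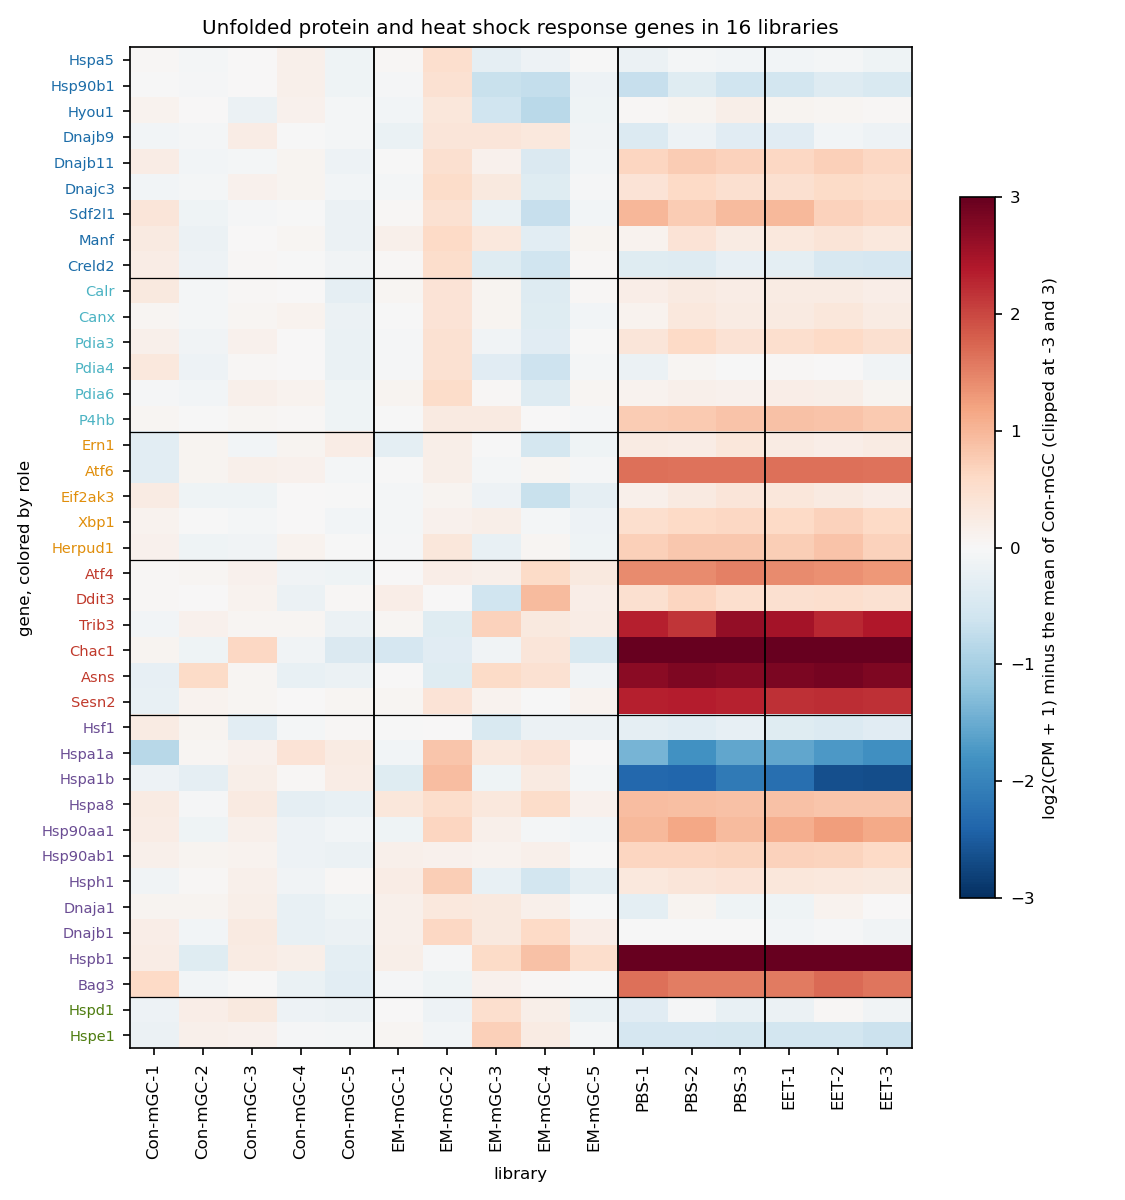
Log2(CPM + 1) of the 39 genes (vertical axis, by role) in the 16 libraries (horizontal axis), minus the mean of Con-mGC. Colors stop at -3 and 3. The cultured libraries stand out in the block of the integrated stress response, in Hspb1, and in Hspa1a and Hspa1b, and EM-mGC-2 and EM-mGC-4 deviate in opposite directions among the ER chaperones.

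Promoter sequence was looked at first, since the genes are known by the elements through which they are induced. RefSeq's windows of GRCm38.p6, which run from 250 bases before to 50 bases after each start, covered 32 of the 39 genes, and 5 motifs were searched for on both strands. The ER stress response element, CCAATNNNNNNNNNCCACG, was in 7 of these 32 genes (21.9%), namely Hspa5, Hsp90b1, Creld2, Dnajc3, Calr, Canx and Pdia6, and in 0.137% of the 27025 genes with a window. The following 4 stretches show it in capitals in the promoters of the HSP70 of the ER and of both lectin chaperones, and show in Herpud1 the related element ATTGGNCCACG together with an amino acid response motif, TGATGNAA. They lie at chr2:34772000-34772068 on the plus strand, chr8:84847050-84847118 on the minus strand, chr11:50325775-50325843 on the minus strand and chr8:94386292-94386412 on the plus strand, and each is written along its gene. In Calr the element, and in Herpud1 the amino acid response motif, are on the opposite strand and so read as their reverse complement.
Hspa5: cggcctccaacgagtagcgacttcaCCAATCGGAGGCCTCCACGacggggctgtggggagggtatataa
Calr: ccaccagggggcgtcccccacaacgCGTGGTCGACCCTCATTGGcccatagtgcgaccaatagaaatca
Canx: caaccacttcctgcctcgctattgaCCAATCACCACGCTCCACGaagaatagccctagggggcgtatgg
Herpud1: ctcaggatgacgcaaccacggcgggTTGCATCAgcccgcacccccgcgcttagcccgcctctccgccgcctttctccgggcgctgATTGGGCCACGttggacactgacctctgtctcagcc
The first base in capitals was 65 bases before the start in Hspa5, 162 in Calr, 145 in Canx and 112 in Herpud1, whose ATTGGNCCACG element began 52 bases before its start. Dnajb11 was the other gene with that element, which 0.0444% of all genes had.

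The TGATGNAA motif, the core of the element that ATF4 is known to bind, was in 4 of the 32 genes (12.5%), against 4.51% of all genes with a window. These were Asns, Chac1, Herpud1 and Trib3, and in Trib3 it lay after the start. Chac1 (chr2:119351024-119351081, plus strand, motif on the opposite strand) and Asns (chr6:7693210-7693257, minus strand) are printed because both belong to the group that changed most in culture.
Chac1: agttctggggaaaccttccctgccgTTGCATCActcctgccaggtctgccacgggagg
Asns: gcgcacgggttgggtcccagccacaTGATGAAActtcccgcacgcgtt
The heat shock element was searched for as GAANNTTC and, with a further unit, as GAANNTTCNNGAA, which holds the shorter one. The shorter motif was in 9 genes (28.1%, against 9.04% of all genes), namely Asns, where it overlaps the motif printed above, Bag3, Dnaja1, Hspa1a, Hspa1b, Hspb1, Hspd1, Hspe1 and Hsph1. The longer motif was in 3 genes (9.38%, against 0.662%), namely Hsph1 and the pair Hspd1 and Hspe1, which start head to head and share it. The shared stretch is given along Hspe1 (chr1:55088034-55088101, plus strand), where matches on both strands overlap in 1 block of capitals, and the stretch of Hspa1a (chr17:34972228-34972285, minus strand) shows the shorter motif.
Hspe1: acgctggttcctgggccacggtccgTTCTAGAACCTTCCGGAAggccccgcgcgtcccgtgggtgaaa
Hspa1a: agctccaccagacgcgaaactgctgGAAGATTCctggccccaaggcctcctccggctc
The same 58 bases of Hspa1b, at chr17:34959310-34959367 on the minus strand, differed from those of Hspa1a at 0 positions, and over the 250 bases before the start the promoters of these 2 genes differed at 3 (98.8% identity). The shares describe letters in a window. They do not show binding, and nothing was read from a window without a match.

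Levels between genes were compared per kilobase of exon. In Con-mGC the highest of the 39 genes were Hsp90ab1, the constitutive cytosolic HSP90, at 611 CPM per kb, the calcium-binding lectin chaperone Calr at 409.8, Hspa5 at 328, the disulfide isomerase P4hb at 293 and the ER HSP90 Hsp90b1 at 260.3 CPM per kb. The lowest were Chac1, which degrades glutathione, at 0.802 CPM per kb, the pseudokinase Trib3 at 1.24 and the stress-inducible HSP70 gene Hspa1a at 1.94 CPM per kb. The constitutive HSP70 gene Hspa8 was at 228 CPM per kb. In the PBS libraries Chac1 was at 13.2, Trib3 at 8.45 and Hspb1 at 227 CPM per kb, while Hspa1a was at 0.395 CPM per kb and the lowest of the 39. Reads that match both Hspa1a and its near-identical copy Hspa1b may be missing from the levels of Hspa1a.

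In freshly isolated mGCs, the comparison of EM-mGC with Con-mGC addressed what differs in granulosa cells of mice with EM. None of the 39 genes passed the test. The adjusted p of edgeR was under 0.05 for 0 of them and for 0 (0%) of the 17229 genes tested. DESeq2 called 0 of the 39 and 112 genes in all. At an unadjusted p under 0.05, edgeR counted 4 of the 39 (10.3%), all higher in EM-mGC, beside 9.44% of all genes and 5.22% counted as higher. Counted in both directions, as planned, the share of the 39 was near the background. The count of higher genes alone was not planned, and its larger share rests on these 4 genes. The 4 were Dnajb1, Hspa8, Hspb1 and Atf4. Values of the groups overlapped for all 39 genes, while they did not overlap for 1.53% of the genes tested. The log2 fold changes of the 39 genes were between -0.41 and 0.46, with a median of 0.08 beside -0.01 over all genes, and 29 were above 0. The 95% interval lay within a 2-fold change for 38 genes, all but Chac1, and within 0.5 on the log2 scale for 24.

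Of the cytosolic heat shock genes, Dnajb1 and Hspa8, a co-chaperone and its HSP70 partner, had the smallest p. Dnajb1 was at 66.9, 55.0, 69.8, 49.7 and 50.7 CPM in Con-mGC and 64.6, 89.7, 71.0, 87.8 and 66.6 CPM in EM-mGC (log2 fold change 0.38, SE 0.13, edgeR unadjusted p = 0.0146 and adjusted p = 0.464). Hspa8 was at 1149, 941, 1166, 809.6 and 835 CPM in Con-mGC and 1224, 1390.1, 1212, 1428 and 1062 CPM in EM-mGC (log2 fold change 0.37, SE 0.15, edgeR unadjusted p = 0.0306 and adjusted p = 0.510). In both genes EM-mGC-2 and EM-mGC-4 were the highest of the 10 libraries, and the groups overlapped through 2 EM-mGC libraries in Dnajb1 and through EM-mGC-5 alone in Hspa8. The small heat shock protein gene Hspb1 was at 13.8, 8.83, 13.9, 13.3 and 9.40 CPM in Con-mGC and 13.3, 11.2, 17.9, 22.2 and 17.2 CPM in EM-mGC (log2 fold change 0.46, SE 0.21, edgeR unadjusted p = 0.0464 and adjusted p = 0.521). Here EM-mGC-4 was again the highest and EM-mGC-1 and EM-mGC-2 lay inside the control range. Dnaja1, another HSP70 co-chaperone, was at 223 ± 25.4 CPM (SD, n = 5) and 252 ± 22.0 CPM (SD, n = 5, log2 fold change 0.18, SE 0.10, edgeR unadjusted p = 0.114 and adjusted p = 0.597). The transcription factor gene Hsf1 was at 82.0, 73.1, 55.6, 66.4 and 71.5 CPM in Con-mGC and 69.2, 69.8, 49.8, 60.6 and 61.4 CPM in EM-mGC (log2 fold change -0.17, SE 0.12, edgeR adjusted p = 0.675), with 4 of the 5 EM-mGC values inside the range of Con-mGC and EM-mGC-3 below it.

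The inducible HSP70 genes Hspa1a (chr17:35188166-35191132) and Hspa1b (chr17:35175412-35178214, both minus strand, GRCm39) are near-identical copies. Reads that match both may be split between them or left uncounted, and a sum of both would not recover uncounted reads. Hspa1a was at 2.62, 5.77, 6.07, 7.61 and 6.63 CPM in Con-mGC and 5.12, 10.5, 7.10, 7.60 and 5.53 CPM in EM-mGC (log2 fold change 0.32, SE 0.28, edgeR adjusted p = 0.731). Hspa1b was at 26.2, 24.2, 33.6, 30.0 and 34.2 CPM in Con-mGC and 22.5, 56.7, 26.6, 35.6 and 28.3 CPM in EM-mGC (log2 fold change 0.19, SE 0.22, edgeR adjusted p = 0.794). EM-mGC-2 was the highest library for both genes, and without it the log2 fold change of Hspa1b was -0.07. Their summed counts gave a log2 fold change of 0.22 (SE 0.22, edgeR adjusted p = 0.760).

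Atf4, the transcription factor of the integrated stress response (chr15:80139385-80141742, plus strand, GRCm39), was at 161, 165, 173, 146 and 143 CPM in Con-mGC and 159, 179.5, 174, 234 and 194 CPM in EM-mGC (log2 fold change 0.26, SE 0.11, edgeR unadjusted p = 0.0438 and adjusted p = 0.520). The highest value was that of EM-mGC-4, and 4 EM-mGC libraries lay above every Con-mGC library, EM-mGC-3 by about 1 CPM. Ddit3, which codes for the pro-apoptotic factor CHOP, was at 21.9, 21.5, 23.1, 18.9 and 22.2 CPM in Con-mGC and 24.8, 21.8, 13.9, 42.8 and 24.6 CPM in EM-mGC (log2 fold change 0.25, SE 0.23, edgeR adjusted p = 0.743). The EM-mGC libraries held both the highest value, EM-mGC-4, and the lowest, EM-mGC-3, and without EM-mGC-4 the log2 fold change was -0.02. Ddit3 overlaps the end of Mars1 on the other strand, and a second gene entry named Ddit3 inside its span had a highest count of 0. The other 4 genes of this group had log2 fold changes of -0.41 (Chac1), 0.13 (Asns), 0.14 (Sesn2) and 0.29 (Trib3), none past the test.

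The number of the 39 genes at an unadjusted p under 0.05 changed when single libraries were left out. It fell from 4 to 1 without Con-mGC-2, Con-mGC-5 or EM-mGC-4 and to 2 without Con-mGC-4 or EM-mGC-5, and was 4 without each of the other 5. These were not always the 4 named genes, since Hspa8 had an unadjusted p of 0.0573 without EM-mGC-2 and Hspb1 of 0.0859 without EM-mGC-3 in edgeR, fitted across all genes. Over all genes the count was 1626 of 17229 with every library. Without Con-mGC-2, Con-mGC-5 and EM-mGC-4 it was 1297 of 17452, 930 of 17407 and 1113 of 17504. Without Con-mGC-4 and EM-mGC-5 it was 978 of 17471 and 1361 of 17511, so the background fell with the same libraries. Dnajb1 stayed under 0.05 in every alternative run, with its highest unadjusted p of 0.0397 without Con-mGC-4 (edgeR, fitted across all genes). Immediate early genes respond within minutes to handling and to hormones. Their sum was 854 to 1515 CPM in Con-mGC and 1261 to 3024 CPM in EM-mGC. EM-mGC-4 had the highest sum and EM-mGC-2 the lowest of EM-mGC. EM-mGC-5 had 1593 CPM, above every Con-mGC library. At an unadjusted p under 0.05 in edgeR, 6 of 11 were higher in EM-mGC. All 5 of 5 neutrophil markers were also higher at that threshold, with sums of 5.82 to 51.9 CPM in Con-mGC and 36.8 to 159 CPM in EM-mGC. Markers of other cells were lower at that threshold, namely 3 of 6 of stroma, 2 of 5 of smooth muscle, 2 of 5 of endothelium and 2 of 5 of theca. The stroma sums did not overlap, at 1444 to 1573 CPM in Con-mGC and 577 to 1349.8 CPM in EM-mGC. The part of handling, of hormones and of these other cells in the values of the 39 genes was not tested.

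**Figure D2:**
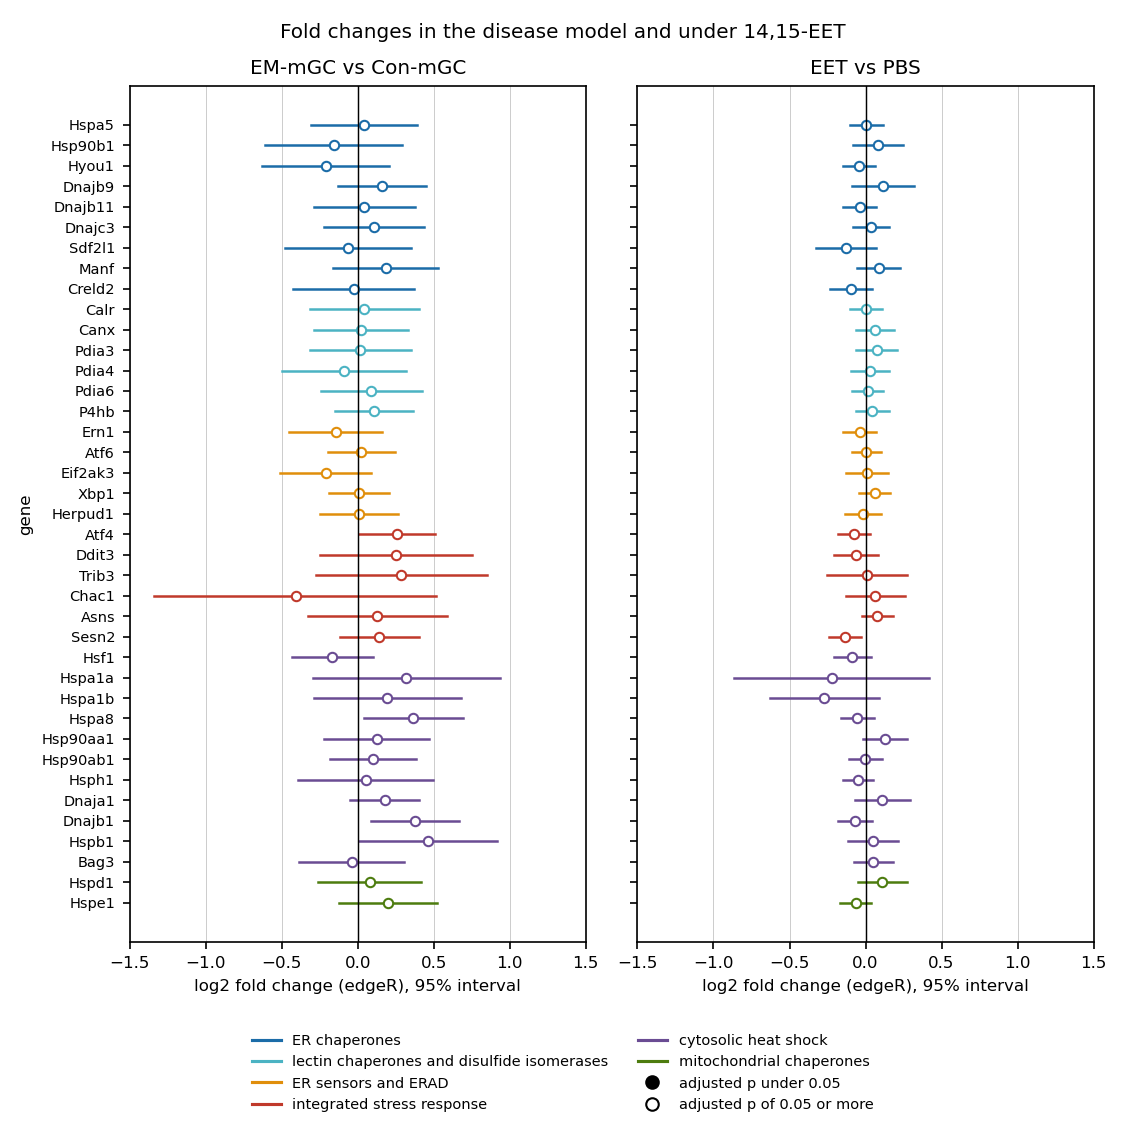
Log2 fold changes from edgeR (points) with 95% intervals (lines) of the 39 genes, EM-mGC against Con-mGC (5 libraries each) on the left and EET against PBS (3 libraries each) on the right, on the same horizontal scale. Every point is open, since 0 of 39 passed an adjusted p of 0.05 in either comparison, and the intervals are narrower for EET against PBS in each gene but Hspa1a.

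Genes of ER folding did not differ between the fresh groups beyond the spread of the EM-mGC libraries. Hspa5 (chr2:34661982-34667559, plus strand, GRCm39) was at 1429.5, 1320.2, 1400.5, 1530.5 and 1263 CPM in Con-mGC and 1422, 1958, 1157, 1243 and 1373 CPM in EM-mGC (log2 fold change 0.04, SE 0.16, edgeR adjusted p = 0.947). EM-mGC-2 was above all other libraries and EM-mGC-3 and EM-mGC-4 below all of them, and without EM-mGC-2 the log2 fold change was -0.10. Hsp90b1 was at 1037, 1016, 1063, 1172 and 959 CPM in Con-mGC and 1019, 1439.8, 659, 640.3 and 949 CPM in EM-mGC. The same pattern ran through the 15 genes of both folding groups. EM-mGC-2 was the highest of the 10 fresh libraries in 14 of the 15 genes and EM-mGC-4 the lowest in 12. Summed over the 15 genes, Con-mGC libraries were at 6662 to 8059 CPM, EM-mGC-4 at 5812 CPM, EM-mGC-2 at 10074.9 CPM and the other 3 EM-mGC libraries at 6880.3 to 7469 CPM. These 2 libraries were also the ends of the range of the granulosa markers, and the part of the granulosa cell content in these sums was not tested. Xbp1 was at 114, 105, 101, 107 and 100.2 CPM in Con-mGC and 101, 116, 119, 100.4 and 95.2 CPM in EM-mGC (log2 fold change 0.01, SE 0.09, edgeR adjusted p = 0.979), with overlapping groups throughout. Eif2ak3 had the sixth smallest p of the 39, with 41.4 ± 4.81 CPM (SD, n = 5) in Con-mGC and 35.8 ± 6.64 CPM (SD, n = 5) in EM-mGC (log2 fold change -0.21, SE 0.14, edgeR unadjusted p = 0.154 and adjusted p = 0.634).

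**Figure D3:**
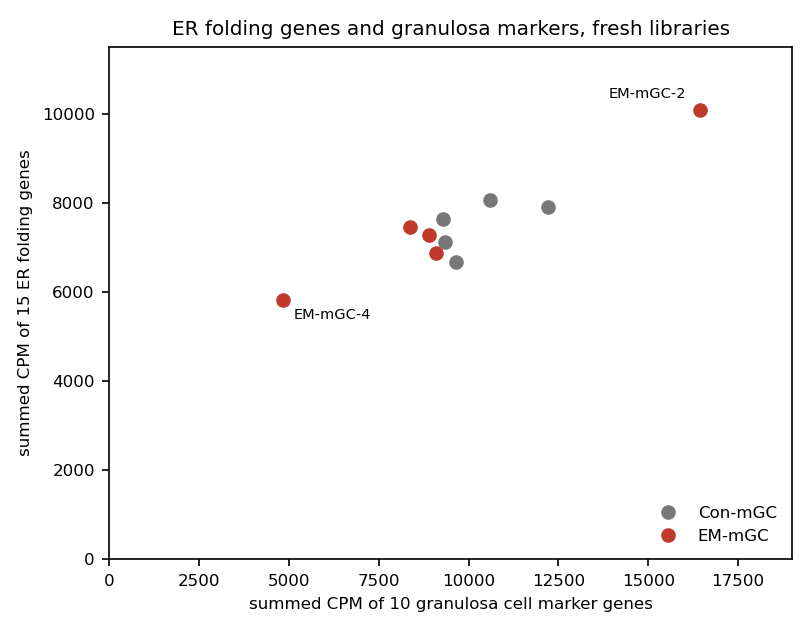
Summed CPM of the 15 ER folding genes (vertical axis) against summed CPM of the 10 granulosa markers (horizontal axis) in the 5 Con-mGC and 5 EM-mGC libraries, 1 point per library. EM-mGC-2 is highest on both axes (10074.9 and 16447 CPM) and EM-mGC-4 lowest on both (5812 and 4832 CPM).

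The second experiment asked what 14,15-EET changes in cultured mGCs of EM mice. None of the 39 genes passed the test. EdgeR called 0 of the 39 and 1.22% of the 15050 genes tested, and DESeq2 also called 0 of the 39 and 324 genes in all. At an unadjusted p under 0.05 there was 1 gene of the 39 (2.56%), beside 12.4% of all genes. It was Sesn2, which codes for the leucine sensor sestrin-2. Sesn2 was at 89.0, 89.7 and 88.0 CPM with PBS and 80.9, 81.3 and 80.0 CPM with EET (log2 fold change -0.14, SE 0.05, edgeR unadjusted p = 0.014 and adjusted p = 0.248), so the 3 EET libraries lay below the 3 PBS libraries by a small step. Values did not overlap between the groups for 6 of the 39 genes (15.4%), near the 16.6% of all genes. All 6 were lower with EET, but the share of all genes in this direction was not computed. They were Sesn2, Atf4, Hsf1, Hspa8, Dnajb1 and Hspe1. Atf4 was among them only barely, with EET-1 at 422.284 CPM and PBS-1 at 422.285 CPM.

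These cultures bounded the effects closely. The 39 log2 fold changes were between -0.27 and 0.13, with a median of 0.01 beside 0.00 over all genes. The 95% interval lay within 0.25 on the log2 scale for 30 genes and within 0.5 for 37. Hspa5 was at 1234, 1341 and 1319 CPM with PBS and 1298, 1339 and 1262 CPM with EET (log2 fold change 0.01, 95% interval -0.10 to 0.12, edgeR adjusted p = 0.978). Atf4 was at 422, 422 and 448 CPM with PBS and 422, 410.0 and 391 CPM with EET (log2 fold change -0.08, 95% interval -0.18 to 0.03, edgeR adjusted p = 0.537). In Hspa5 the EET libraries lay among the PBS libraries, and in Atf4 EET-1 and PBS-1 had the same level at this precision. Xbp1 had a log2 fold change of 0.06 (95% interval -0.04 to 0.16, edgeR adjusted p = 0.642), Ddit3 of -0.06 (95% interval -0.21 to 0.08, edgeR adjusted p = 0.736) and Hsf1 of -0.09 (95% interval -0.21 to 0.03, edgeR adjusted p = 0.542).

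The widest intervals were those of Hspa1a and Hspa1b, which had few reads in culture. Hspa1b was at 4.96, 4.85 and 5.99 CPM with PBS and 5.32, 3.92 and 3.79 CPM with EET (log2 fold change -0.27, SE 0.16, edgeR unadjusted p = 0.126 and adjusted p = 0.527). Hspa1a was at 1.46, 0.846 and 1.21 CPM with PBS and 1.18, 0.969 and 0.806 CPM with EET (log2 fold change -0.22, 95% interval -0.87 to 0.42, edgeR adjusted p = 0.793). Neither gene separated the groups. The stress-inducible HSP90 gene Hsp90aa1 was at 649, 748 and 647 CPM with PBS and 706, 795 and 732 CPM with EET (log2 fold change 0.13, SE 0.07, edgeR unadjusted p = 0.0737 and adjusted p = 0.454), with overlapping ranges. Asns, which makes asparagine, had a log2 fold change of 0.08 (SE 0.05, edgeR adjusted p = 0.517).

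Cultured and fresh cells of EM mice differed far more. PBS libraries were compared with EM-mGC libraries, and the time in culture, the change in cell types, the separate isolation and the sequencing of the second experiment cannot be told apart in this comparison. Of the 39 genes, 24 (61.5%) were called by edgeR, beside 69% of the 17301 genes tested. In PBS 18 were higher and 6 lower, beside 31.1% and 37.9% of all genes. At least a 2-fold change was seen in 10 of the 39, beside 41.7% of all genes. Of these, 8 were higher, beside 13.2% of all genes, and 2 lower, beside 28.5%. The median log2 fold change of the 39 was 0.35 and that of all genes -0.11. Upper-quartile scaling, which moved the median of all genes by a further -0.25, gave 13 higher and 10 lower calls. Keeping only genes with at least 10 counts in every library gave 14 higher and 8 lower. Over all genes 11924 of 17301 and 8560 of 13288 were called in these runs.

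**Figure D4:**
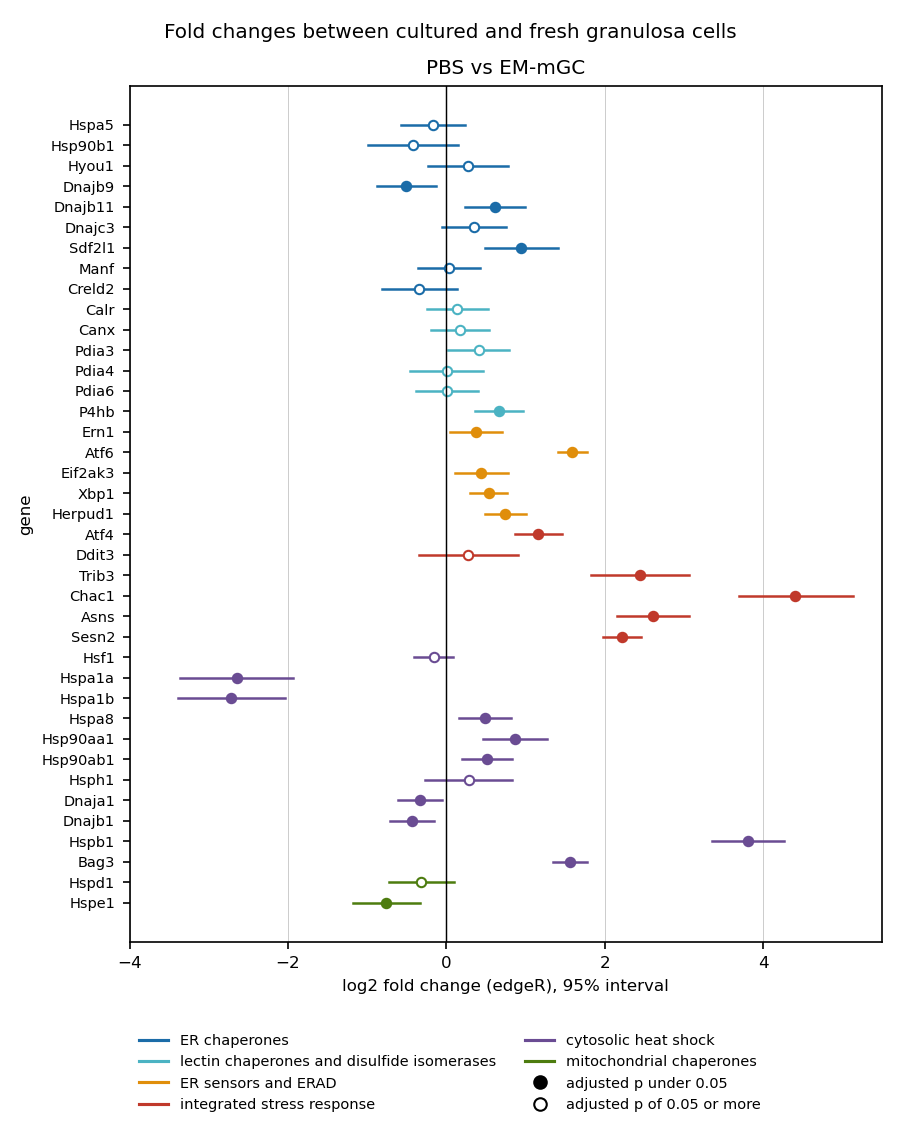
Log2 fold changes from edgeR (points) with 95% intervals (lines) of the 39 genes, PBS (3 libraries) against EM-mGC (5 libraries), colored by role. Filled points passed an adjusted p of 0.05, 18 of them above 0 and 6 below, and the genes farthest from 0 are Chac1 and Hspb1 on the right and Hspa1a and Hspa1b on the left.

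Genes of the integrated stress response rose together in culture. Of the 6 genes 5 were higher, each by more than 2-fold, and the median log2 fold change of the 6 was 2.33. Atf4 was at 159, 179.5, 174, 234 and 194 CPM in EM-mGC and 422, 422 and 448 CPM in PBS (log2 fold change 1.16, SE 0.13, edgeR adjusted p = 4.34e-05). Chac1 was at 0.576, 0.786, 1.07, 1.87 and 0.628 CPM in EM-mGC and 22.2, 19.7 and 22.7 CPM in PBS (log2 fold change 4.41, SE 0.32, edgeR adjusted p = 2.65e-06). No PBS library overlapped an EM-mGC library in either gene, and Chac1 had the largest change of the 39, from a level near 1 CPM. Asns was at 22.5, 17.1, 33.6, 30.9 and 20.5 CPM in EM-mGC and 151, 161 and 156 CPM in PBS (log2 fold change 2.61, SE 0.20, edgeR adjusted p = 4.05e-06). Trib3, a target of ATF4 and CHOP, was at 2.75, 1.81, 4.88, 3.42 and 3.27 CPM in EM-mGC and 17.2, 15.1 and 21.6 CPM in PBS (log2 fold change 2.44, SE 0.28, edgeR adjusted p = 3.74e-05). Sesn2 was at 17.7, 22.8, 18.1, 16.6 and 18.1 CPM in EM-mGC and 89.0, 89.7 and 88.0 CPM in PBS (log2 fold change 2.22, SE 0.11, edgeR adjusted p = 2.50e-07). In all 5 genes the PBS libraries lay above every fresh library, and each was called in every alternative that tested it. Ddit3 was the exception. It was at 24.8, 21.8, 13.9, 42.8 and 24.6 CPM in EM-mGC and 30.3, 34.0 and 31.0 CPM in PBS (log2 fold change 0.28, SE 0.28, edgeR adjusted p = 0.397), with EM-mGC-4 above all PBS libraries and the other 4 below them. Without EM-mGC-4 its log2 fold change was 0.53 and passed the test (edgeR adjusted p = 0.0306). Ddit3 was also called as higher with the replicate block (log2 fold change 0.66, edgeR adjusted p = 0.0128). The same held with Con-mGC in place of EM-mGC (log2 fold change 0.48, edgeR adjusted p = 0.000709).

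**Figure D5:**
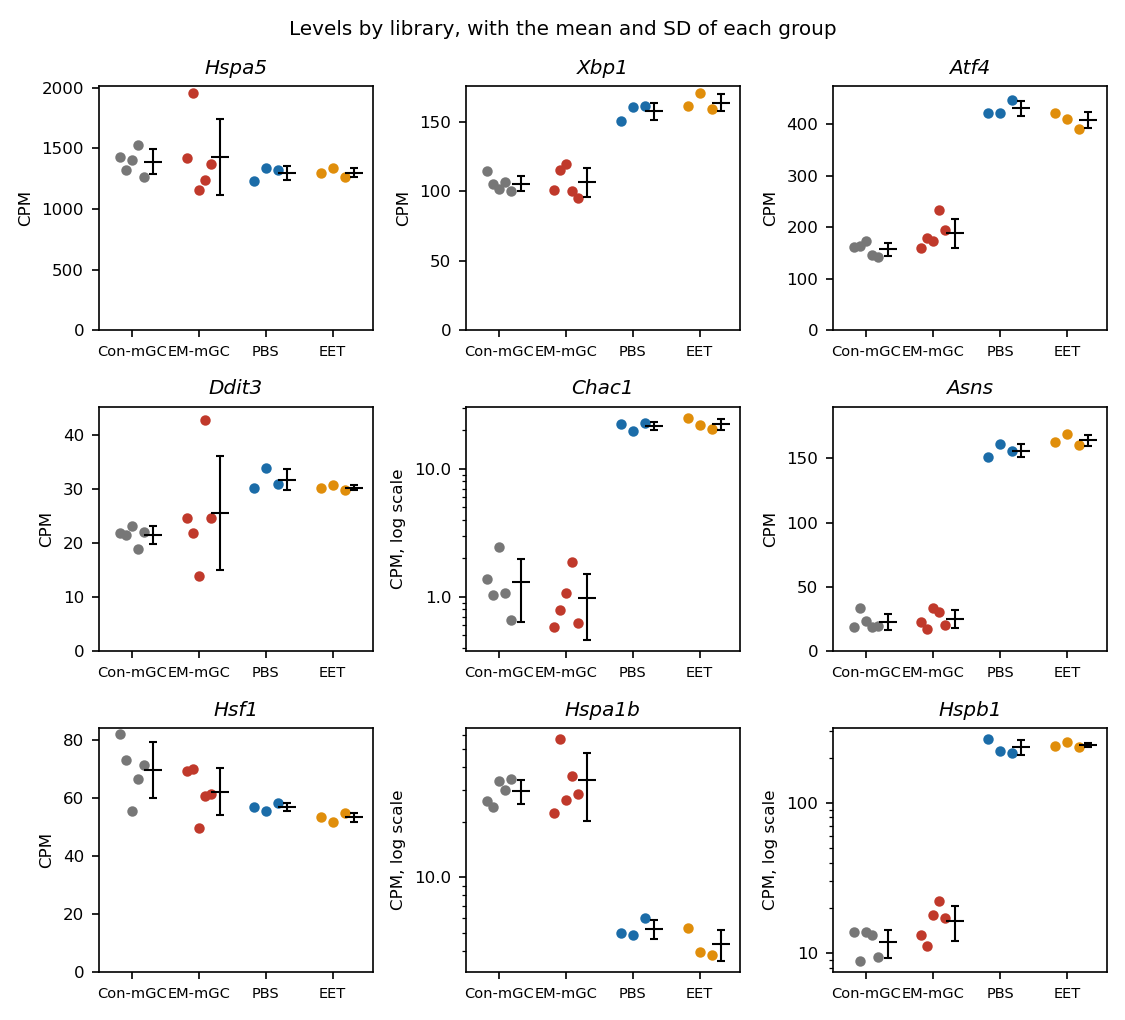
CPM by library (points) with the mean and SD of each group (bar beside the points) for 9 of the genes in Con-mGC and EM-mGC (5 libraries each), PBS and EET (3 each). The vertical axes start at 0 except where marked as log scale. Atf4, Chac1, Asns and Hspb1 are higher and Hspa1b lower in both cultured groups than in any fresh library, while Hspa5 and Hsf1 overlap between fresh and cultured libraries.

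All 5 sensor and ERAD genes were higher in PBS. The stress sensor gene Atf6 rose most, from 61.5, 69.9, 59.0, 64.4 and 60.3 CPM in EM-mGC to 196, 194 and 193 CPM in PBS (log2 fold change 1.59, SE 0.08, edgeR adjusted p = 4.65e-07), with close replicates and no overlap. Herpud1, which codes for an ER membrane protein of the degradation complex, was at 46.3 ± 7.31 CPM (SD, n = 5) in EM-mGC and 79.5 ± 3.32 CPM (SD, n = 3) in PBS (log2 fold change 0.75, SE 0.12, edgeR adjusted p = 0.000322). Xbp1 was at 101, 116, 119, 100.4 and 95.2 CPM in EM-mGC and 150.5, 160.2 and 162 CPM in PBS (log2 fold change 0.53, SE 0.10, edgeR adjusted p = 0.00108). The remaining 2 sensors, Ern1 and Eif2ak3, had log2 fold changes of 0.37 and 0.44. Neither was called with upper-quartile scaling or the higher count minimum, Ern1 also not with DESeq2, and both calls were lost without EM-mGC-5, PBS-2 or PBS-3, and that of Ern1 also without EM-mGC-1, EM-mGC-4 or PBS-1.

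The folding genes of the ER showed no common direction. Of the 9 ER chaperones 2 were higher (Dnajb11 and Sdf2l1), 1 lower (Dnajb9) and 6 not called, and of the 6 lectin chaperones and disulfide isomerases only P4hb was called, as higher. Hspa5 was at 1234, 1341 and 1319 CPM in PBS (log2 fold change -0.17, SE 0.18, edgeR adjusted p = 0.416), inside the range of EM-mGC. Its 95% interval ran from -0.58 to 0.23. Sdf2l1, a partner of HSPA5 and its co-chaperones, was at 31.2, 42.3, 26.2, 18.5 and 28.4 CPM in EM-mGC and 61.8, 52.0 and 59.4 CPM in PBS (log2 fold change 0.95, SE 0.21, edgeR adjusted p = 0.00226). Dnajb11, which helps HSPA5 bind its clients, was at 110.3 ± 26.1 CPM (SD, n = 5) in EM-mGC and 172 ± 6.91 CPM (SD, n = 3) in PBS (log2 fold change 0.61, SE 0.17, edgeR adjusted p = 0.00861). P4hb was at 828, 1009, 1008, 844 and 820.0 CPM in EM-mGC and 1425, 1447 and 1514 CPM in PBS (log2 fold change 0.66, SE 0.14, edgeR adjusted p = 0.00171). In these 3 genes every PBS library lay above every fresh library. Dnajb9, an inhibitor of the sensor IRE1, was at 24.5, 36.5, 36.7, 35.4 and 26.2 CPM in EM-mGC and 21.1, 25.5 and 22.1 CPM in PBS (log2 fold change -0.51, SE 0.17, edgeR adjusted p = 0.0204), and its call was lost without PBS-1 or PBS-3. The 11 genes not called had log2 fold changes from -0.42 (Hsp90b1) to 0.41 (Pdia3). Among them Creld2 had -0.34, Hyou1, the large HSP70 of the ER, 0.27, Dnajc3, which inhibits PERK, 0.35, Manf 0.03, Calr 0.14, Canx 0.17, Pdia4 0.01 and Pdia6 0.01. Upper-quartile scaling changed several of these calls. Hsp90b1 and Creld2 were then called as lower, and the call of Dnajb11 was lost (log2 fold change 0.36, edgeR adjusted p = 0.0815). Pdia3 was called as higher by DESeq2 (adjusted p = 0.0391), in the fit of all 16 libraries and without EM-mGC-2, and Dnajc3 in both of these edgeR fits. Creld2 was also called as lower without EM-mGC-4.

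The cytosolic heat shock genes split. Of the 11 genes 5 were higher, 4 lower and 2, Hsf1 and Hsph1, not called, although Hsph1 was called as higher without EM-mGC-2 (log2 fold change 0.48). Hspb1 (chr5:135916773-135918417, plus strand, GRCm39) was at 13.3, 11.2, 17.9, 22.2 and 17.2 CPM in EM-mGC and 265, 222 and 216 CPM in PBS (log2 fold change 3.81, SE 0.21, edgeR adjusted p = 5.09e-07). The co-chaperone gene Bag3, which hands clients of HSP70 to autophagy, was at 44.8, 41.5, 50.4, 46.6 and 45.1 CPM in EM-mGC and 147, 134 and 133 CPM in PBS (log2 fold change 1.56, SE 0.10, edgeR adjusted p = 1.07e-06). Both genes had every PBS library above every fresh library. The inducible HSP70 genes went the other way. Hspa1b was at 22.5, 56.7, 26.6, 35.6 and 28.3 CPM in EM-mGC and 4.96, 4.85 and 5.99 CPM in PBS (log2 fold change -2.72, SE 0.30, edgeR adjusted p = 3.46e-05). Hspa1a was at 5.12, 10.5, 7.10, 7.60 and 5.53 CPM in EM-mGC and 1.46, 0.846 and 1.21 CPM in PBS (log2 fold change -2.64, SE 0.32, edgeR adjusted p = 5.52e-05). Again no library overlapped, and their summed counts gave a log2 fold change of -2.70 (SE 0.29, edgeR adjusted p = 2.60e-05). The HSP90 gene Hsp90aa1 was at 303, 518, 371, 317 and 316 CPM in EM-mGC and 649, 748 and 647 CPM in PBS (log2 fold change 0.87, SE 0.18, edgeR adjusted p = 0.00167). Hspa8 and Hsp90ab1 were also called as higher (log2 fold changes 0.49 and 0.51), though neither with upper-quartile scaling nor with the replicate block (edgeR adjusted p = 0.0969 and 0.119), and Hspa8 also not with at least 10 counts in every library. The co-chaperones Dnaja1 and Dnajb1 were called as lower (-0.33 and -0.43), and the call of Dnaja1 was lost without PBS-1 or PBS-3, without the filter on low counts and with the replicate block. Both calls were lost with Con-mGC in place of EM-mGC (log2 fold changes -0.19 and -0.10, edgeR adjusted p = 0.142 and 0.487). Hsf1 was at 69.2, 69.8, 49.8, 60.6 and 61.4 CPM in EM-mGC and 56.7, 55.5 and 58.4 CPM in PBS (log2 fold change -0.16, SE 0.11, edgeR adjusted p = 0.221). The log2 fold change of Hsf1 was -0.41 with upper-quartile scaling, where it passed the test (edgeR adjusted p = 0.0116), as it did with at least 10 counts in every library and without EM-mGC-3. Of the 2 mitochondrial chaperones, Hspe1, the co-chaperonin, was lower, at 151 ± 37.6 CPM (SD, n = 5) in EM-mGC and 91.3 ± 0.656 CPM (SD, n = 3) in PBS (log2 fold change -0.76, SE 0.19, edgeR adjusted p = 0.00488). Its partner Hspd1 had a log2 fold change of -0.32 and was not called, but was called as lower with upper-quartile scaling (-0.57, edgeR adjusted p = 0.0154) and with at least 10 counts in every library (-0.47, edgeR adjusted p = 0.0374). The spans of both genes overlap on opposite strands, so that without strand their reads cannot be told apart there.

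Markers moved with this comparison as well. In PBS all 5 endothelial, 6 leukocyte, 5 neutrophil, 6 oocyte and 5 red blood cell markers were called as lower, and 9 of the 10 granulosa, 5 of 6 stroma, 4 of 5 theca and 4 of 7 luteal markers were too. Smooth muscle markers went in both directions, with 2 of 5 called as higher and 2 as lower, and their sum was 98.2 to 251 CPM in EM-mGC and 579 to 759 CPM in PBS. Of the 11 immediate early genes 1 was higher and 5 lower. Mitochondrial genes took 1.18% to 1.64% of the counts in PBS and 8.09% to 21.8% in EM-mGC. The part of these cell types and of these shares in the values of the 39 genes was not tested. PBS was also compared with Con-mGC in place of EM-mGC, a comparison that shares the PBS libraries and was chosen after seeing the data. Of the 39 genes 27 were called, 20 higher and 7 lower, beside 13311 of all 17732 genes tested. At least a 2-fold change was seen in 10 of the 39. In PBS against EM-mGC, leaving out each library in turn gave between 20 and 27 called genes of the 39. Over all genes 10792 to 12332 were called, of 16783 to 17894 tested. At least a 2-fold change was seen in 10 or 11 of the 39, and the share of all genes was not computed for these runs.

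Other genes of the same pathways came from 8 lists of 169 genes, of which 164 were tested in each comparison. In EM-mGC against Con-mGC 0 of the 164 were called by edgeR and 0 by DESeq2. An unadjusted p under 0.05 in edgeR was seen in 11 of the 164, beside 9.44% of all genes. In EET against PBS 1 was called by edgeR, beside 1.22% of all genes, and 3 by DESeq2. Of the 164, 20 had an unadjusted p under 0.05 in edgeR, beside 12.4% of all genes. The gene called by both was Wfs1, which codes for wolframin, an ER membrane protein, at 206 ± 9.24 CPM (SD, n = 3) with EET and 273 ± 14.5 CPM (SD, n = 3) with PBS (log2 fold change -0.40, SE 0.06, edgeR adjusted p = 0.00399). In PBS against EM-mGC 95 were higher and 15 lower, beside 31.1% and 37.9% of all genes, with a median log2 fold change of 0.41. The 39 tested genes of the wider integrated stress response, largely ATF4 targets and amino acid enzymes, had 33 higher and 1 lower, with a median of 1.09. The 8 subunits of the cytosolic chaperonin were all higher (0.36 to 0.64). Of 18 further ERAD genes 10 were higher and 1 lower, of 31 folding genes 11 and 6, of 14 translocation genes 5 and 1, of 7 transcription and sensor genes 6 and 0, of 39 heat shock genes 17 and 6, and of 8 mitochondrial chaperone genes 5 and 0. The largest changes were in Gdf15, a secreted stress cytokine, at 53.0 ± 12.1 CPM (SD, n = 3) in PBS and 1.17 ± 0.387 CPM (SD, n = 5) in EM-mGC (log2 fold change 5.46, edgeR adjusted p = 2.45e-07). Cryab, a small heat shock protein gene like Hspb1, was at 103 ± 19.4 CPM (SD, n = 3) in PBS and 4.71 ± 1.65 CPM (SD, n = 5) in EM-mGC, and the stress-induced Nupr1 at 627 ± 78.5 CPM (SD, n = 3) and 50.8 ± 33.2 CPM (SD, n = 5). Among genes that fell, Atf3, a stress-induced partner of ATF4 that is also an immediate early gene, was at 3.74 ± 0.787 CPM (SD, n = 3) in PBS and 40.2 ± 22.0 CPM (SD, n = 5) in EM-mGC (log2 fold change -3.46, edgeR adjusted p = 7.23e-05). The oxidase Ero1b (log2 fold change -1.05) and the disulfide isomerase Pdia5 (-1.02) were lower too.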

How the data were processed

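Granulosa cell RNA was sequenced in 16 libraries as stranded poly(A) libraries with paired reads of 150 bp. The authors deposited raw gene counts made with featureCounts in 2 tables, 1 per experiment. The processing notes name GRCm39, fastp, HISAT2 and StringTie without versions or roles. The strand setting of the counting was not given in the sources used here. Counts were tested in R 4.3.3 with edgeR 4.0.16 (filterByExpr, TMM, quasi-likelihood F test, Benjamini-Hochberg adjustment over all genes tested, threshold 0.05), separately for 3 comparisons: EM-mGC against Con-mGC, EET against PBS and PBS against EM-mGC, the last joining both tables by gene identifier. Totals were 14229123 to 29482826 counts. Errors are SD over libraries, SE of the log2 fold change or 95% intervals. The edgeR test of the 3 comparisons was tried on simulated data, while DESeq2, the replicate block and the motif search were not. Alternatives were DESeq2 1.42.0, other scalings and filters, 1 fit of all 16 libraries, summed Hspa1a and Hspa1b, a replicate block, leaving out each library and, chosen after seeing the data, Con-mGC in place of EM-mGC. Levels per kb used exon lengths of GENCODE vM21 (GRCm38). The genes and lists were chosen with earlier results of these data known. Tests were printed, in each comparison, for Hspa5, Xbp1, Atf4, Ddit3, Hsf1, Hspa1a and Hspa1b. For EM-mGC against Con-mGC and for EET against PBS, the 6 genes with the smallest unadjusted p and every called gene were added, and for PBS against EM-mGC the 14 called genes with the largest absolute log2 fold change. From the other pathway lists, up to 3 called genes in each direction with the largest change and a mean of at least 1 CPM were named. Values of further genes (Dnajb9, Dnajb11, P4hb and the genes not called) were added after their values were seen, to account for every gene.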

Additional observations from a re-analysis of the deposited data

Results flagged for a closer look

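In 5 of 78 tests of the genes by fresh group, 1 library stood far from the other 4, and chance alone would give about 1 in 20. Dnajb9 was at 33.0 CPM in Con-mGC-3 (next 28.3 CPM). Con-mGC-1 was the highest of Con-mGC for Sdf2l1 at 39.1 CPM (next 30.3 CPM) and for Bag3 at 70.1 CPM (next 45.2 CPM). Sesn2 was at 22.8 CPM in EM-mGC-2 (next 18.1 CPM). Hsp90ab1 was lowest of EM-mGC in EM-mGC-5, at 1813 CPM (next 1973 CPM).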

How the results depend on the processing

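No gene of the 39 was called in EM-mGC against Con-mGC or in EET against PBS under any alternative run, while the calls over all genes were 0 to 112 and 0 to 662. In PBS against EM-mGC the number called was 20 to 27 over all alternatives. Over all genes it was from 8560 of 13288 tested to 14355 of 33669 tested. In EM-mGC against Con-mGC the count of the 39 at an unadjusted p under 0.05 fell from 4 to 2 with the replicate block. It was 1 to 4 with single libraries left out. Over all genes the count went from 1626 to 1364 with the block and was 930 to 2515 with single libraries left out. The cause was not tested. With single libraries left out, the log2 fold change in EM-mGC against Con-mGC was -0.10 to 0.11 for Hspa5, -0.0353 to 0.0514 for Xbp1, -0.0164 to 0.41 for Ddit3 and -0.0680 to 0.31 for Hspa1b, and in EET against PBS -0.0185 to 0.0256 for Hspa5. The study describes the cultures as paired, but the labels do not say that equal numbers mark the pairs. Correlations of deviations between libraries of equal number were -0.25 to 0.22 for EM-mGC with Con-mGC and -0.02 to 0.10 for EET with PBS, where 1 of 5 and 1 of 3 numbers correlated best with their own. These values do not show pairing by number, and over 3 numbers they cannot show its absence. With the replicate block, calls over all genes went from 0 to 2, from 184 to 341 and from 11937 to 10806 in the 3 comparisons, and 20 of the 39 were called in PBS against EM-mGC. Hsp90aa1 in EET against PBS had an unadjusted p of 0.0205 and an adjusted p of 0.209 with the block in edgeR (log2 fold change 0.13). With the block 2456 of the 15050 genes tested had an unadjusted p under 0.05. For Hsp90aa1 EET was above PBS in 3 of 3 libraries of equal number, which are not shown to be pairs.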
